A study of Homo sapiens with 6 samples.

Results

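CDH17 and GEM lie next to each other on the long arm of chromosome 8, and they were studied here together with the genes around them, from RBM12B to CCNE2, in a leukaemia cell line in which UGT2B17 was knocked down. The stretch was chosen by the measured differences of CDH17 and GEM between knockdown and control arrays, so the differences of these 2 genes are given as a description, with no test. The other 8 listed genes (RBM12B, TMEM67, PDP1, RAD54B, ESRP1, DPY19L4, INTS8 and CCNE2) were taken for their position. Of the 10 listed genes, 9 were measured, out of 18404 genes in the whole comparison. ESRP1, which encodes a regulator of splicing in epithelial cells, has no probe set naming it in the array annotation and was not analysed here. Each of the 9 was read by 1 probe set, a group of probes on the array that together report 1 transcript region, and for each the annotation names that gene alone.

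MEC-1, an established line of leukaemic B cells (chronic lymphocytic leukaemia), was grown in RPMI medium with 10% FCS and neither phenol red nor antibiotics. Lentivirus brought in a short hairpin RNA (shRNA) directed at UGT2B17, an enzyme that glucuronidates androgens and other small molecules, in the knockdown group, and a scrambled shRNA in the control group. Each group had 3 arrays, and all 6 came from this 1 cell line. The labels give neither the number of hairpins nor whether replicates were separate cultures, so each p-value speaks only of the spread among these arrays. Loss of UGT2B17, off-target action of the hairpin and culture differences cannot be told apart as sources of any difference below.

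UGT2B17 itself read 3.19, 3.27 and 3.17 log2 units in the knockdown and 3.95, 3.69 and 3.91 with scrambled shRNA on its own probe set, a dim one at percentile 1.98 of the tested genes. It fell by 0.64 ± 0.08 log2 units (SE; limma, Benjamini-Hochberg adjusted p = 0.00654). B cell markers were bright on all arrays, with a mean over 6 genes (MS4A1, CD79A, CD79B, PAX5, CD22 and BLK) of 10.86 to 10.87 in the knockdown and 10.83 to 10.90 with scrambled shRNA. The means of the marker lists of T and NK cells, of monocytes and granulocytes, of epithelial cells and of fibroblasts lay between 5.30 and 6.40 on all arrays. Single genes were brighter, up to a mean of 8.37 for CDH1 in the epithelial list. Only the monocyte and granulocyte means lay apart between groups, at 5.41 to 5.42 in the knockdown and 5.47 to 5.62 with scrambled shRNA. In that list 0 of 7 genes passed, and ITGAM read −0.60 ± 0.15 (SE, limma adjusted p = 0.0659). Scrambled replicate 3 deviated most from its group, by 0.138 log2 units (root mean square) against 0.0771 to 0.112 for the other 5 arrays. Of all genes tested, 665 passed the threshold (limma, adjusted p under 0.05), which is 3.61%; 1.92% were higher and 1.69% lower in the knockdown.

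These neighbours on the chromosome have little in common by function. CDH17 encodes liver-intestine cadherin, a calcium-dependent adhesion protein of the gut epithelium with a short cytoplasmic tail, and GEM encodes a small GTPase of the RGK family that binds the beta subunits of voltage-gated calcium channels. GEM is known as a gene that mitogens switch on in lymphocytes. Among the others, PDP1 is the phosphatase that switches the pyruvate dehydrogenase complex on, RAD54B is a DNA translocase of homologous recombination, INTS8 is a subunit of the Integrator complex that cleaves nascent RNA, and CCNE2 is the cyclin E2 that drives CDK2 at entry into S phase. TMEM67 is a membrane protein of the ciliary transition zone, DPY19L4 belongs to a membrane protein family that includes mannosyltransferases, and RBM12B is an RNA-binding protein.

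CDH17 was about 4 times as high in the knockdown as with scrambled shRNA. It read 9.10, 9.23 and 9.07 log2 units on the knockdown arrays and 7.42, 7.18 and 6.65 on the scrambled arrays. The groups did not overlap, and 1.65 log2 units separated the lowest knockdown array from the highest scrambled array. The means were 9.13 ± 0.08 and 7.08 ± 0.39 (SD, n = 3 each), and the difference was 2.04 ± 0.17 log2 units (SE; 95% interval 1.67 to 2.42), or 4.13-fold (3.17 to 5.36). By size this difference ranked 1 among the 18404 genes. The scrambled arrays were far less alike than the knockdown arrays: the SD of 0.39 lay at percentile 99.1 of all genes' scrambled SDs, and scrambled replicate 3 was the lowest of the 3. Without that array the difference was 1.83 log2 units. In RNA from a whole culture, more cells that express the gene and more RNA per cell cannot be told apart. In the RefSeq annotation CDH17 overlaps a long noncoding RNA gene, LOC105375647, and a pseudogene, RPL6P23, and whether its probe set tells them apart was not tested.

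GEM was 2.15-fold higher in the knockdown, with an SD of 0.09 log2 units in each group. It read 8.42, 8.49 and 8.60 log2 units on the knockdown arrays and 7.48, 7.39 and 7.31 on the scrambled arrays. Again the groups did not overlap, with 0.94 log2 units between them. The difference was 1.11 ± 0.08 (SE; 95% interval 0.93 to 1.28), a fold change with an interval of 1.91 to 2.43, which ranked 7 among all increases. In both genes scrambled replicate 3 was the lowest array.

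**Figure D1:**
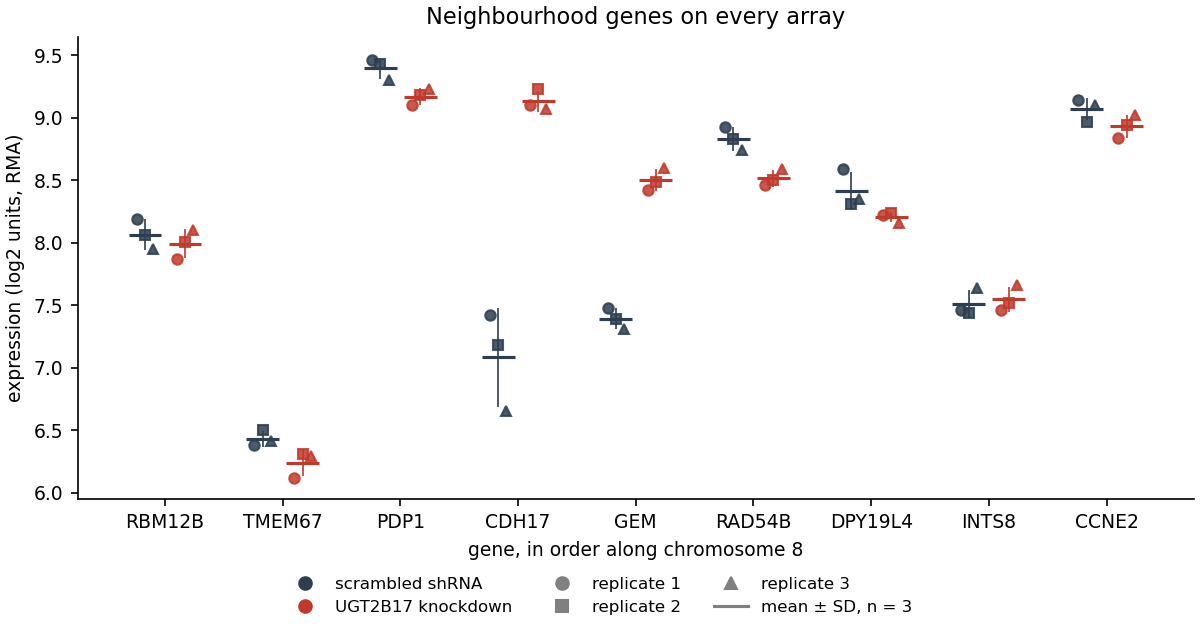
Expression (vertical axis, log2 units after RMA) of the 9 measured neighbourhood genes in chromosomal order (horizontal axis) on each of 3 scrambled (dark) and 3 knockdown (red) arrays; horizontal lines are means and vertical lines SDs. The knockdown arrays stand clear above the scrambled arrays for CDH17 and GEM, and the scrambled arrays of CDH17 spread from 6.65 to 7.42.

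None of the 7 measured neighbours chosen by position passed the threshold (0 of 7 against 3.61% of all genes; limma). Their differences were small and mostly downward. The mean was lower in the knockdown for 6 and higher for 1, with a median difference of −0.19 log2 units, beside −0.002 over all genes, of which 50.7% had a lower mean. An unadjusted p under 0.05 was reached by 4 of the 7, against 18.15% of all genes. In the same 4, RAD54B, PDP1, TMEM67 and DPY19L4, every knockdown array lay below every scrambled array, as in 13.1% of all genes; 24.8% of all genes separated in either direction. None of the 7 differed by more than 0.32 log2 units either way, where the median absolute difference of all genes was 0.09.

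RAD54B, on the far side of GEM from CDH17, had the largest difference of the 7. It read 8.46, 8.50 and 8.59 log2 units in the knockdown and 8.93, 8.83 and 8.74 with scrambled shRNA. The groups did not overlap, but the gap was only 0.16. The difference of −0.32 ± 0.07 (SE; 95% interval −0.49 to −0.15) just missed the threshold (limma adjusted p = 0.0515). It passed without scrambled replicate 3, at −0.36 (adjusted p = 0.0308), with arrays centred on their median (0.0385), among the brighter genes only (0.0304), with an intensity trend (0.0395) and with array weights (0.00325). It did not pass after another quantile normalisation (limma adjusted p = 0.0945), with a robust prior (0.0537) or over every single-gene probe set (0.0574). The highest adjusted p over the refits was 0.185. FSBP overlaps RAD54B in the RefSeq annotation and has no probe set of its own here, so signal from the 2 genes may not be separable.

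PDP1, the nearest measured gene on the other side of CDH17, read 9.10, 9.18 and 9.23 log2 units in the knockdown and 9.46, 9.43 and 9.30 with scrambled shRNA. All knockdown arrays were the lower ones, by a gap of 0.07. The difference was −0.22 ± 0.07 (SE; 95% interval −0.39 to −0.06) and did not pass (limma adjusted p = 0.137), except with array weights (adjusted p = 0.00883). With array weights 3511 of the 18404 genes passed, and the weights ran from 0.25 for scrambled replicate 3 to 6.12 for scrambled replicate 2. The measured genes on either side of CDH17 and GEM therefore read lower, not higher, on all 3 knockdown arrays, although neither passed.

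TMEM67 read 6.12, 6.31 and 6.29 log2 units in the knockdown and 6.38, 6.50 and 6.41 with scrambled shRNA, without overlap. Its difference of −0.19 ± 0.08 (SE) did not pass (limma adjusted p = 0.236), although it did with array weights (adjusted p = 0.0235), where 3511 genes passed. DPY19L4 read 8.22, 8.24 and 8.16 in the knockdown and 8.59, 8.31 and 8.35 with scrambled shRNA. Here too the groups lay apart, by 0.07, with scrambled replicate 1 the highest array. The difference was −0.21 ± 0.08 and did not pass (limma adjusted p = 0.235).

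In the 3 remaining neighbours the groups overlapped. RBM12B read 7.87, 8.01 and 8.10 log2 units in the knockdown against 8.19, 8.06 and 7.95, a difference of −0.07 ± 0.09 (SE; 95% interval −0.27 to 0.13). INTS8 read 7.46, 7.52 and 7.66 against 7.46, 7.44 and 7.64, a difference of 0.03 ± 0.08 (95% interval −0.15 to 0.22), the only one above 0 among the 7. Its sign turned without knockdown replicate 3 or scrambled replicate 2. CCNE2 read 8.84, 8.94 and 9.02 against 9.14, 8.97 and 9.10, a difference of −0.13 ± 0.08 (95% interval −0.30 to 0.04). INTS8 and CCNE2 overlap in the annotation, as do CCNE2 and NDUFAF6, and RBM12B with CIBAR1 and its antisense RNA RBM12B-AS1; whether the probe sets tell such transcripts apart was not tested. VIRMA, a subunit of the complex that writes N6-methyladenosine on RNA, lies between RAD54B and DPY19L4 and is not on the list. It read 9.01, 9.09 and 9.01 in the knockdown and 9.11, 9.10 and 9.18 with scrambled shRNA, a difference of −0.09 ± 0.06 that did not pass (limma adjusted p = 0.498).

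**Figure D2:**
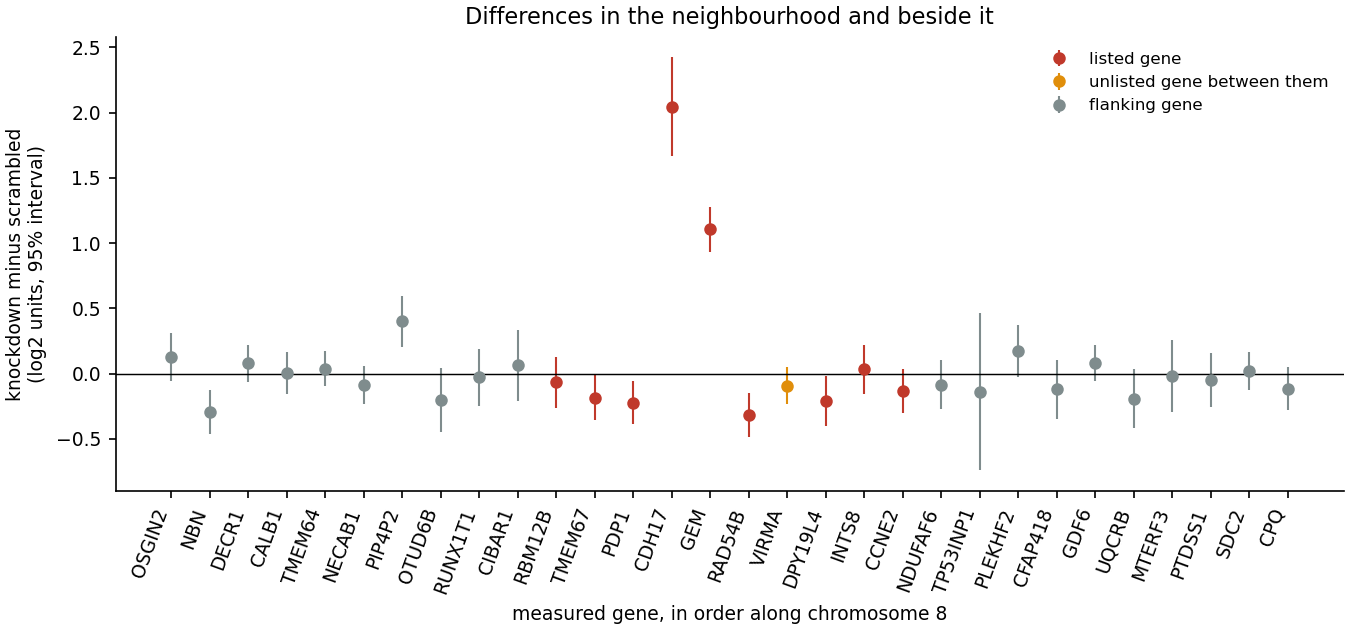
Difference between knockdown and scrambled arrays (vertical axis, log2 units; points are estimates, bars 95% intervals from limma) for the listed genes (red), VIRMA (orange) and the 10 nearest measured genes on each side (grey), in chromosomal order. CDH17 at 2.04 and GEM at 1.11 stand above genes whose estimates all lie between −0.32 and 0.40.

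No gene close to either end of the stretch differed by as much as CDH17 or GEM. Of the 20 nearest measured genes, 10 on each side, 1 passed (limma; 5% by count, against 3.61% of all genes), and their median difference was −0.02 log2 units, with a range from −0.29 to 0.40. The 1 gene was PIP4P2, a phosphatase of phosphatidylinositol 4,5-bisphosphate, 7 measured genes before CDH17. It read 7.67, 7.56 and 7.64 in the knockdown and 7.27, 7.35 and 7.05 with scrambled shRNA, and rose by 0.40 ± 0.09 log2 units (SE; limma adjusted p = 0.0431). Its call was kept without scrambled replicate 3 and lost without any 1 of the other arrays, and its adjusted p was at most 0.158 over all alternatives. The nearest measured gene before the stretch, CIBAR1, differed by 0.06 ± 0.12, and the nearest after it, NDUFAF6, by −0.09 ± 0.08, neither of which passed. NBN, the DNA repair protein nibrin and also a gene of homologous recombination, read −0.29 ± 0.07, which did not pass (limma adjusted p = 0.0685).

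Over the whole of chromosome 8, 638 genes were measured, of which 23 rose and 7 fell (limma adjusted p under 0.05), or 4.70%, with a median difference of −0.001 log2 units. The 23 and the 4.70% count CDH17 and GEM, whose calls are no test because their differences chose the stretch. CDH17 and GEM were the only 2 of the 638 with a difference of at least 1 in either direction. They were also the only pair, of 18351 pairs of measured genes next to each other on any chromosome, in which both were higher by at least 1. Since that is how they were picked, this is a description. Pairs in which both genes passed in the same direction numbered 20 for increases, the pair of CDH17 and GEM included, and 18 for decreases.

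**Figure D3:**
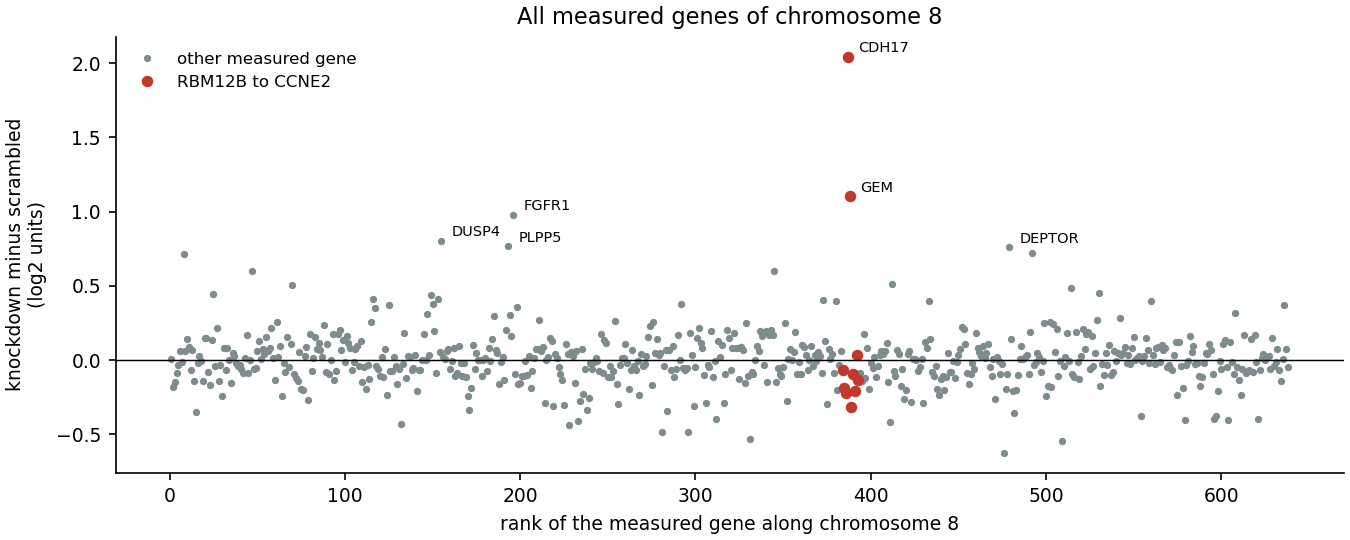
Difference between knockdown and scrambled arrays (vertical axis, log2 units) for all 638 measured genes of chromosome 8 by their rank along it (horizontal axis); the stretch from RBM12B to CCNE2 is red. CDH17 and GEM are the 2 highest points, and the rest of the stretch lies between −0.32 and 0.03.

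None of the measured relatives of CDH17 passed the threshold. Of 25 other cadherin genes, 0 passed and 0 had an unadjusted p under 0.05 (limma), with differences from −0.17 to 0.20 log2 units. Over all genes 3.61% passed and 18.15% had such a p. Most of the 25 were dim, from percentile 2.92 of the tested genes (CDH12) to 41.5 (CDH22), and only CDH1 was brighter, at 71.1. CDH16, the closest relative of CDH17 in domain layout, read 5.35, 5.27 and 5.25 in the knockdown and 5.26, 5.25 and 5.29 with scrambled shRNA, a difference of 0.02 ± 0.06 (SE). CDH1, the E-cadherin of epithelia, read 0.14 ± 0.10. Of 6 catenins, which link classical cadherins to the cytoskeleton, 0 passed, and 0 had an unadjusted p under 0.05.

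CDH17 marks gut epithelium, so genes of that tissue were set beside it. Of 10 measured intestinal and hepatocyte factors and markers, 0 passed and 1, LGALS4, had an unadjusted p under 0.05 (limma). Over all genes 3.61% passed, 1.92% upward, and 18.15% had an unadjusted p under 0.05. CDX2, an intestinal transcription factor known to drive CDH17, read 6.66, 6.78 and 6.89 log2 units in the knockdown and 6.69, 6.76 and 6.75 with scrambled shRNA, and CDX1 differed by −0.06 ± 0.06 (SE). Of 16 epithelial splicing and epithelial genes, KRT18, a keratin with many processed pseudogenes that may share its probe signal, rose by 0.32 ± 0.07 (limma adjusted p = 0.0494) and 15 did not pass. The KRT18 call passed in only 5 of 15 refits. It was lost without any 1 array other than scrambled replicate 3, with median centring (adjusted p = 0.0976), a robust prior (0.0515) or the replicate block (0.0947), and when every probe set naming 1 gene (0.0545) or every deposited one (0.139) was tested, with an adjusted p of at most 0.183. EPCAM read −0.36 ± 0.12 and ESRP2, the relative of the unmeasured ESRP1, −0.09 ± 0.09. Neither passed. The mean over 7 epithelial markers was 6.37 on each knockdown array and 6.23 to 6.40 on the scrambled arrays, so the groups overlapped. The part of other cell types in the CDH17 difference was not tested beyond these values.

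None of the 3 relatives of GEM passed. RRAD differed by −0.04 ± 0.07 log2 units (SE), REM1 by −0.03 ± 0.09 and REM2 by 0.07 ± 0.11. Among the partners of this family, CACNB1, a calcium channel beta subunit, rose by 0.39 ± 0.07 (limma adjusted p = 0.0249), from 8.36, 8.47 and 8.44 with scrambled shRNA to 8.86, 8.71 and 8.90. Of the 10 measured genes of the family and its partners 9 did not pass, with CACNB3, another beta subunit, at 0.28 ± 0.11. Of all genes 3.61% passed. The CACNB1 call was kept without scrambled replicate 3 and lost without any 1 of the other arrays (adjusted p at most 0.113 over all alternatives).

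Genes known to respond to calcium, cyclic AMP and other quick signals, several of them through the transcription factor CREB, included 4 that rose and 0 that fell among 15 measured, with 11 that did not pass and a median difference of 0.19 log2 units (limma; over all genes 1.92% rose and 1.69% fell). An unadjusted p under 0.05 was reached by 12 of the 15, against 18.15% of all genes. The list was put together with earlier results of these arrays known and is no independent evidence of a direction. DUSP4, a MAP kinase phosphatase, rose by 0.81 ± 0.10 (SE), EGR1, a zinc finger factor, by 0.53 ± 0.11, NR4A3, an orphan nuclear receptor, by 0.47 ± 0.07 and RGS2, a regulator of G protein signalling, by 0.45 ± 0.10 (limma adjusted p = 0.00559, 0.0340, 0.0120 and 0.0370). CREB1, the gene of CREB itself, read −0.21 ± 0.06 and its relative CREM −0.23 ± 0.07, and neither passed. The count of 4 fell to 1 without knockdown replicate 1, knockdown replicate 3 or scrambled replicate 2, and to 2 without knockdown replicate 2 or scrambled replicate 1. With array weights 9 rose and 2 fell, and over all deposited probe sets 1 rose. Among brighter genes 2 rose, EGR1 and RGS2, while DUSP4 and NR4A3 lay below the median brightness and were not part of that fit. DUSP4 passed in each of the 6 fits that left out an array.

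Genes that act with RAD54B and CCNE2 in DNA repair and the cell cycle came next. Of 16 homologous recombination genes, 0 passed (3.61% of all genes) and 5 had an unadjusted p under 0.05 (18.15% of all genes; limma), with a median difference of −0.04 log2 units. Among brighter genes or with an intensity trend 1 fell, and with array weights 3. RAD54L, the nearest relative of RAD54B, read 8.23, 8.28 and 8.36 in the knockdown and 8.29, 8.29 and 8.36 with scrambled shRNA, a difference of −0.03 ± 0.07 (SE). XRCC2 read −0.31 ± 0.10 and RAD51C −0.26 ± 0.09, and neither passed. Of 18 genes around cyclin E and CDK2, 1 rose and 3 fell (limma; over all genes 1.92% and 1.69%), and 9 had an unadjusted p under 0.05. CCNE1, the relative of CCNE2, read −0.20 ± 0.11 and did not pass.

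The 3 that fell were CCND2, cyclin D2, by 0.85 ± 0.14 log2 units (SE), CDK6, its kinase partner, by 0.40 ± 0.07 and SKP2, which marks the inhibitor p27 for degradation, by 0.39 ± 0.08 (limma adjusted p = 0.0153, 0.0183 and 0.0394). FBXW7, which targets cyclin E for degradation, rose by 0.38 ± 0.08 (limma adjusted p = 0.0446), but passed in only 6 of 15 refits; its call was lost with median centring (adjusted p = 0.0711), when every probe set naming 1 gene (0.0504) or every deposited one (0.139) was tested, with the replicate block (0.104) and without any 1 array other than scrambled replicate 1. The count of 4 in this list was 0 without any 1 of the 3 knockdown replicates and 1 without scrambled replicate 2; it was 2 with median centring or the replicate block, 0 over all deposited probe sets and 8 with array weights. CCND2 read 7.18, 7.26 and 7.28 in the knockdown and 7.89, 7.92 and 8.46 with scrambled shRNA, so scrambled replicate 3 was the highest array.

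Few genes passed in the complexes and families of the remaining neighbours. Of 17 other genes on the Integrator list 0 passed (3.61% of all genes) and 1 had an unadjusted p under 0.05 (18.15% of all genes, limma). Besides INTS genes, the list holds NABP1, NABP2 and INIP. The differences of the 17 lay between −0.21 (NABP2) and 0.06 log2 units, so the 0.03 of INTS8 lay within their range. Of 12 genes around pyruvate dehydrogenase 0 passed (3.61% of all genes) and 6 had an unadjusted p under 0.05 (18.15% of all genes); 1 fell after another quantile normalisation, among brighter genes or with an intensity trend, and 1 rose and 3 fell with array weights. Their values included MPC1, a subunit of the mitochondrial pyruvate carrier, at −0.43 ± 0.10 (SE, limma adjusted p = 0.0599). PDK2, a kinase that opposes PDP1, read −0.18 ± 0.06 (limma adjusted p = 0.171). PDK1, another such kinase, went the other way, at 0.24 ± 0.08 (limma adjusted p = 0.171), and neither kinase passed. PDP2, the relative of PDP1, was not measured. Of the 3 relatives of DPY19L4, DPY19L2, which has near-identical pseudogene copies, read −0.33 ± 0.15, DPY19L3 −0.24 ± 0.12 and DPY19L1 −0.05 ± 0.07. None passed, and 0 had an unadjusted p under 0.05; with array weights 1 fell.

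Of 18 genes of the ciliary transition zone, where TMEM67 acts, AHI1 rose by 0.64 ± 0.08 log2 units (SE; limma adjusted p = 0.00620) and TMEM231 fell by 0.32 ± 0.06 (adjusted p = 0.0348), while 16 did not pass. Over all genes 1.92% rose, 1.69% fell and 18.15% had an unadjusted p under 0.05. AHI1 read 7.13, 7.33 and 7.35 in the knockdown and 6.69, 6.54 and 6.65 with scrambled shRNA, and its call held without each array in turn. That of TMEM231 was kept without scrambled replicate 3 and lost without any 1 of the other arrays. Of 4 RNA-binding proteins related to RBM12B, 0 passed and 1, GRSF1, had an unadjusted p under 0.05 (limma), at −0.24 ± 0.07. RBM12, a direct relative of RBM12B, was not measured. Over all 13 lists, 8 of 170 genes rose and 4 fell, or 7.06% against 3.61% of all genes, and the 12 became 2, 3, 2 and 3 without knockdown replicate 1, 2 and 3 and scrambled replicate 2. The lists were chosen with earlier results of these arrays known, so the larger share is no independent evidence. The list of CREB and calcium response genes gave 4 of the rises, and that around cyclin E and CDK2 gave 1 rise and 3 falls.

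**Figure D4:**
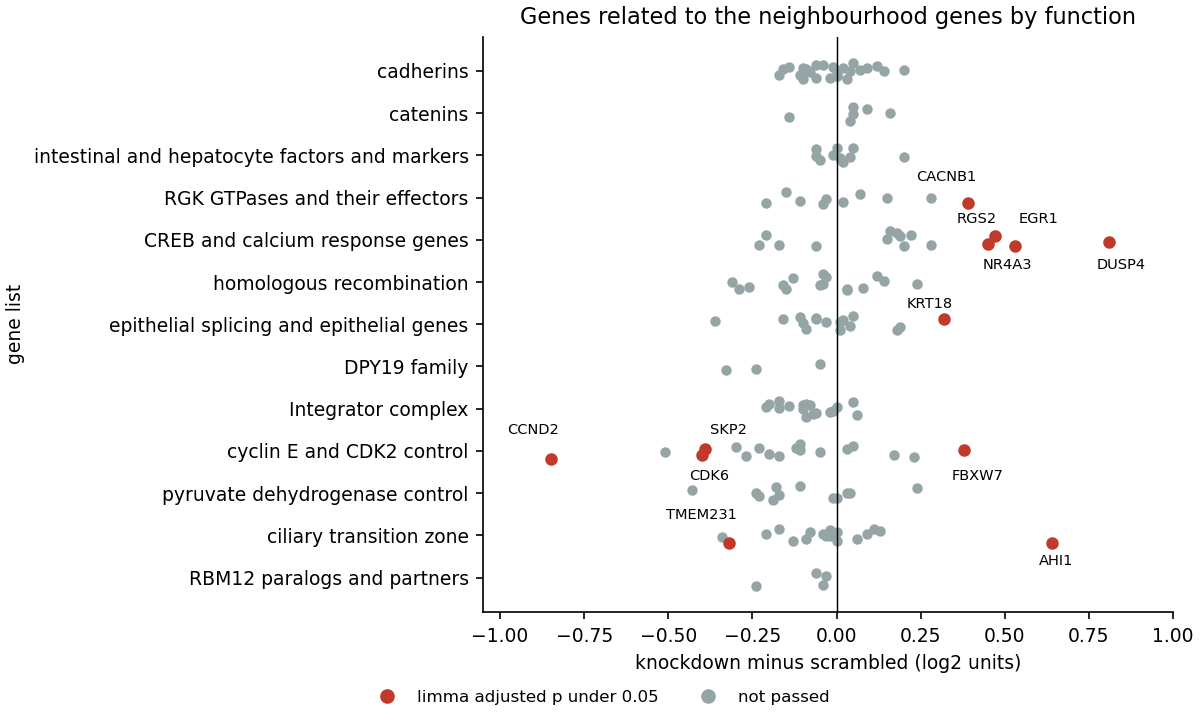
Difference between knockdown and scrambled arrays (horizontal axis, log2 units) for the measured genes of 13 lists related by function to the neighbourhood genes (rows); each point is 1 gene, red where limma's adjusted p was under 0.05. No cadherin, catenin, Integrator or DPY19 gene is red, and the genes that passed run from −0.85 for CCND2 to 0.81 for DUSP4.

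CDH17 and GEM were not each other's nearest match among the 18404 profiles over the 6 arrays. Likeness was measured as the root mean square distance between 2 profiles after each was centred on its scrambled mean. Profiles were not scaled, so the size of a difference weighs in this distance. CDH17 (2.04) and GEM (1.11) were chosen by differences of unlike size. Their distance is therefore a description, and whether their profiles share a shape was not tested. GZMK, the protease granzyme K, was nearest to CDH17, at 0.090 log2 units, followed by BHLHE41, a transcriptional repressor, at 0.501 and SCN3A, a sodium channel subunit, at 0.643. GZMK read 10.36, 10.46 and 10.47 in the knockdown and 8.89, 8.43 and 7.96 with scrambled shRNA, so scrambled replicate 3 was lowest, as for CDH17. Nearest to GEM were SLC7A11, the cystine/glutamate exchanger, at 0.103, SCN3A at 0.123 and the growth factor receptor gene FGFR1 at 0.126. CDH17 was not among the 3 nearest to GEM, nor GEM among the 3 nearest to CDH17.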

How the data were processed

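Biotin-labelled total RNA (whole-transcript kit) was read on 1 array per sample, per the labels' protocols. The authors deposited log2 values made with RMA (background correction, quantile normalisation between arrays, summary of probes), per the submitters' processing notes, which name no version. RMA compresses differences of dim probe sets, and its quantile step would mask a shift common to most genes. A level on 1 probe set cannot be set against that on another as an amount of RNA. Bright, dim and percentile above describe the signal of a probe set only.

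Of 32321 probe sets, those naming 1 gene were kept, and per gene the brightest by its mean over 6 arrays, with no filter on dim ones, which left 18404 genes. Gene order came from RefSeq (assembly GRCh38.p14); no build is named for the array annotation, so coordinates and sequences are left out. The 2 groups were set against each other in limma 3.58.1 (R 4.3.3; lmFit, eBayes, two-sided, without covariates), and p-values were adjusted by Benjamini-Hochberg over all 18404 genes, with a threshold of 0.05. The code was tested on simulated data. Groups were taken from the labels. Members, gene lists and the rule for named genes were chosen with earlier results of these data known. The rule named the listed genes, flanking genes that passed, and up to 4 genes per list by unadjusted p with direct relatives. It also named the 3 nearest profiles of CDH17 and of GEM. CDH1, CDX2, CREB1, CREM and PDK1 were named outside the rule, after their values were seen. Alternatives were another quantile normalisation, median centring, brighter genes only, an intensity trend, a robust prior, array weights, testing every single-gene probe set or every deposited one, a block for the replicate number, each array left out, an adjusted p under 0.1, and other numbers of flanking genes.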

Additional observations from a re-analysis of the deposited data

How the results depend on the processing

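The number of arrays, 3 per group, limits every value. CDH17 and GEM kept their direction in all 15 refits, at 1.83 to 2.21 and 1.06 to 1.15 log2 units. Of the other measured neighbours all but INTS8 kept theirs; INTS8 read −0.02 without knockdown replicate 3 and −0.00444 without scrambled replicate 2. Neither scaling moved the median of all genes by over 0.1.

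Of the 7 neighbours chosen by position, 1 passed with median centring, among the brighter genes, with an intensity trend or at an adjusted p under 0.1, 3 with array weights, and 0 to 1 with an array left out. Of the flanking genes, 2 passed among the brighter genes, with an intensity trend or at an adjusted p under 0.1, 3 with array weights or with 20 genes on each side, 0 over all deposited probe sets, and 0 to 1 with an array left out. Of the related genes 38 passed with array weights, 2 over all deposited probe sets, and 2 to 12 with an array left out. Over all genes 3511 passed with array weights, 1207 at an adjusted p under 0.1, and 152 to 759 with an array left out. When every deposited probe set was tested, 165 of 32321 probe sets passed, a count of probe sets and not of genes. Median centring turned the split from 354 higher and 311 lower to 275 and 316. Fits without an array have fewer residual degrees of freedom, and the count of genes that passed both fell and rose among them. The cause of these and the other changes was not tested.

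The replicate numbers did not pair the samples: deviations of same-numbered arrays correlated at −0.054, −0.067 and −0.033. With the replicate block, 0 flanking genes, 6 related genes and 367 genes in all passed, and CDH17 and GEM read as before, at 2.04 and 1.11.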
